A study of Mus musculus with 8 samples.

Results

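The genes described here encode the contractile and metabolic machinery of striated muscle, measured in mouse dorsal skin before birth. There were 41 member genes, chosen by symbol from the sarcomere, its calcium and energy supply and the neuromuscular junction. They were read by 66 probesets, short groups of array probes for one transcript, each annotated to exactly 1 member symbol. The whole series held 18193 genes and 34945 probesets of that kind. For the 13 members with 2 or more probesets, the one with the highest mean over all arrays stands for the gene, and 28 members had 1 probeset.

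Dorsal skin from wild-type embryos was compared at embryonic day 14.5 (E14.5, 2 arrays), E16.5 (3 arrays) and E18.5 (3 arrays). No strain, sex or treatment is given in the labels, and no array carried a mutation or a treated control. The stages were chosen to trace regulatory programmes of the differentiating epidermis. Nothing in the labels says whether the arrays of a stage came from different embryos, so each p-value below measures the spread between these samples, which may be partly technical.

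Dorsal skin of the mouse includes a thin sheet of striated muscle, the panniculus carnosus, beneath the dermis. Muscle fibres contract when myosin heavy chains of the thick filament pull on actin, and the troponin complex lets them do so when calcium is released. Most of these proteins come in several isoforms. Developing fibres use embryonic and perinatal myosins first, slow fibres keep the slow isoforms, and adult fast myosins appear as fibres mature.

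The values are array signal intensities on a linear scale. Changes are differences of log2(signal + 16), with their standard error (SE), from limma fitted to all single-symbol probesets and adjusted by Benjamini-Hochberg; a gene was called at an adjusted p under 0.05. Background on each array was the 95th percentile of 80 odorant and pheromone receptor probesets. It lay at 43.9 and 45.7 at E14.5, 41.9, 53.2 and 33.6 at E16.5 and 92.2, 62.2 and 81.0 at E18.5. A fold against a stage with an array at or below background is given as "at least". In bulk skin, fewer muscle cells and less RNA per muscle cell cannot be told apart. Levels of different probesets were not set against each other, and only changes of within-array ratios were used to compare isoforms.

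The E14.5 arrays stood apart technically. The 3′ over 5′ signal ratio of the actin control was 6.49 and 6.91 there, between 1.11 and 1.14 on the E16.5 arrays and between 1.35 and 1.37 on the E18.5 arrays. Stage and array preparation therefore cannot be told apart in any comparison with E14.5. Among the E18.5 arrays, replicate 2 was the lowest of its stage for 35 of the 41 members (38.4% of all genes were lowest there), and replicate 3 was the highest for 33 (33.1% of all genes). At E14.5, replicate 1 was the lower for 33 members (53.8% of all genes). The summed member signal was 31865 and 54860 on the E14.5 arrays, between 184655 and 202170 on the E16.5 arrays, and between 193477 and 306160 on the E18.5 arrays.

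Most of the muscle genes rose from E14.5 to E16.5, and after that their isoforms changed in different directions. From E16.5 to E18.5, 9 of 41 members rose and 4 fell, where 6.9% of all genes rose and 5.23% fell. The risers were the perinatal myosin Myh8, the adult fast myosins Myh1, Myh2 and Myh4, and Mybpc2, Actn3, Tpm2, Casq1 and Rpl3l. Those that fell were the slow genes Myh7, Myl3 and Tnni1 and the embryonic troponin Tnnt2. The median log2 change was 0.35 over the members and 0.12 over all genes. By isoform class, 3 of 7 slow members fell and none rose (median -0.87), while 3 of 9 fast members rose and none fell (median 0.63).

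From E14.5 to E16.5, 32 of 41 members rose and 0 fell, where 37.3% of all genes rose and 21.3% fell. The median change was 2.52 over the members and 0.30 over all genes. Median centring of the arrays moved the median of all genes to -0.55 and left 23 members rising, with Myh1, Myh4, Myl3 and Tpm2 falling; quantile normalization gave 29 rising and Myh4 falling. Over both intervals, from E14.5 to E18.5, 32 members rose and 2 fell (Myh7 and Myl3), where 41.9% of all genes rose and 19.9% fell. With median centring 25 rose and 5 fell, the 3 others being Myl2, Myl4 and Tnnt2.

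How the all-gene calls divided depended on scaling. Of all genes called from E16.5 to E18.5, 56.9% were higher at E18.5, against 49.7% with quantile normalization and 28.2% with median centring. The corresponding shares were 63.6%, 50.3% and 32.5% from E14.5 to E16.5, and 67.8%, 51.5% and 30.6% from E14.5 to E18.5. The 9 members that rose from E16.5 to E18.5 numbered 8 with quantile normalization and 9 with centring, and the 4 that fell numbered 3 and 6. Without E18.5 replicate 3, 10 members fell in that interval, and without E14.5 replicate 2, 1 member fell from E14.5 to E18.5. The all-gene counts from E16.5 to E18.5, 1256 rising and 951 falling, were 551, 514 and 413 rising and 421, 402 and 312 falling without E16.5 replicate 1, 2 or 3 in turn.

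**Figure D1:**
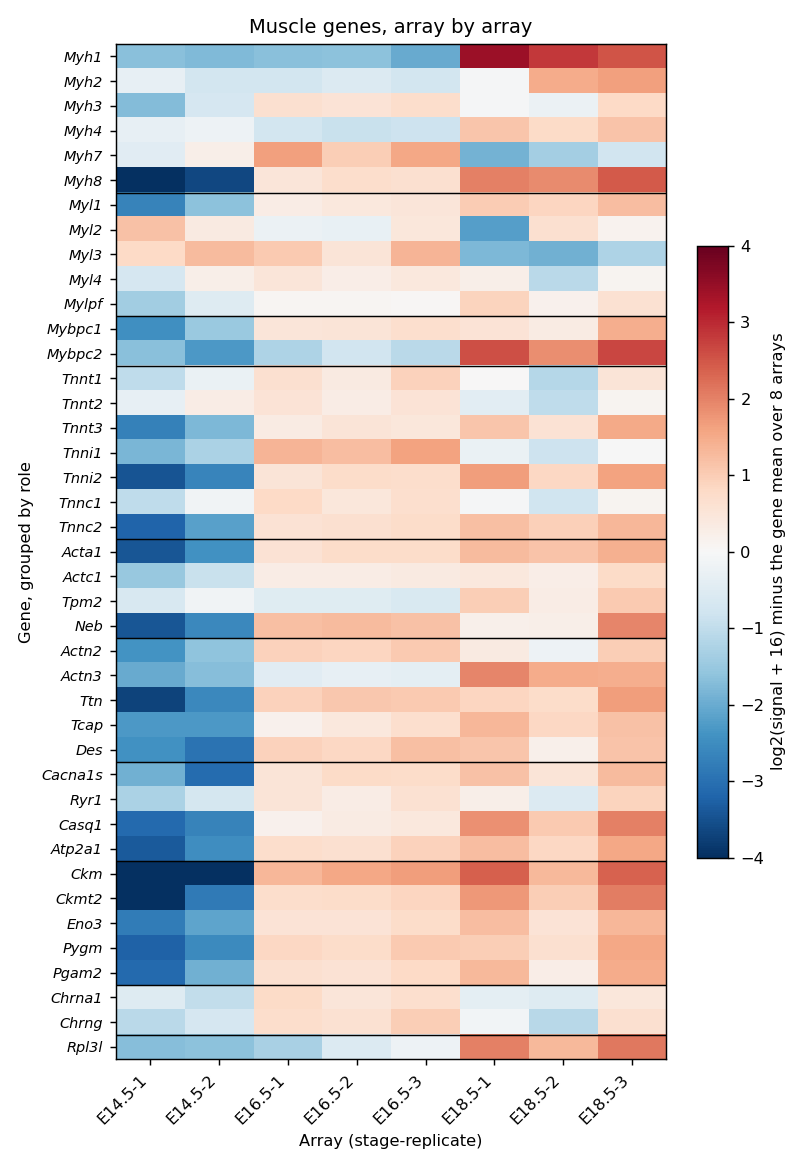
Each row is a member gene, each column an array, and colour is log2(signal + 16) minus the mean of that gene over the 8 arrays, with lines between roles and the scale ending at -4 and 4. Most rows are blue on the 2 E14.5 arrays and red on the later ones, while Myh7, Myl3 and Tnni1 are highest at E14.5 or E16.5 and lower on all 3 E18.5 arrays than on any E16.5 array.

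The myosin heavy chains, the motor proteins of the thick filament, changed in different directions. Between E16.5 and E18.5 the perinatal and adult fast chains were called as rising, Myh2 and Myh4 near background. The slow chain fell, and the embryonic chain was not called. The genes of the embryonic, adult fast and perinatal chains lie in one cluster on chromosome 11, in the order Myh3, Myh2, Myh1, Myh4 and Myh8, and the slow gene Myh7 lies on chromosome 14. Promoter windows of 4 chains are shown because their signals moved in different ways over the same interval. Each runs 5′ to 3′ on the gene's strand from 250 bases before to 50 after its RefSeq start (build GRCm38.p6). Capitals mark matches on either strand to the E-box word CANNTG, the TATA-box word TATAAA, the MEF2 site or the CArG box. The windows are chr11:67078050-67078349 (plus strand) for Myh3, chr11:67276874-67277173 (plus) for Myh8, chr11:67199852-67200151 (plus) for Myh1 and chr14:54994577-54994876 (minus) for Myh7.
Myh3: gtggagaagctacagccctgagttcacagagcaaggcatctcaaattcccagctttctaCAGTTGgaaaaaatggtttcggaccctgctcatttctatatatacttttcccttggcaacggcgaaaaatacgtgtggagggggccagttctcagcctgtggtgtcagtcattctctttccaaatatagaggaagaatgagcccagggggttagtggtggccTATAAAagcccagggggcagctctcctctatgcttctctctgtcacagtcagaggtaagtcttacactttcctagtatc
Myh8: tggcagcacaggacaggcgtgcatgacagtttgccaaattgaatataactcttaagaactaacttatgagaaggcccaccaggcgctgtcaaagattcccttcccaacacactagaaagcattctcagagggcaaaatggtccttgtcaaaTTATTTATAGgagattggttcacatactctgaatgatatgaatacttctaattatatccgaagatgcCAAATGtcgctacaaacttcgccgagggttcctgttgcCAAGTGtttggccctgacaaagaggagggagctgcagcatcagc
Myh1: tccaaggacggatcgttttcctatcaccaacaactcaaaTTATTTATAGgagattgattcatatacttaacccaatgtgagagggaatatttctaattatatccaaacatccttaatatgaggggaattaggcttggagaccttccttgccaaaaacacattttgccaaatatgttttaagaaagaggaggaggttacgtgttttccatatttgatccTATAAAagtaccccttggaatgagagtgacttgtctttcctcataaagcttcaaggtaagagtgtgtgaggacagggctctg
Myh7: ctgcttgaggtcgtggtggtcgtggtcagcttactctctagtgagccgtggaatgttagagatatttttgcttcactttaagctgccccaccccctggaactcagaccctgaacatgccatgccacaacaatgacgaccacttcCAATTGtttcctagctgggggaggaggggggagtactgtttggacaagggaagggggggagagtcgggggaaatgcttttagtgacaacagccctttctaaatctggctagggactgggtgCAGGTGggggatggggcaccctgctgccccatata

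The Myh8 and Myh1 windows held the same MEF2 match, TTATTTATAG on the gene's strand, beginning 99 bases before the start in Myh8 and 211 in Myh1. In both, a TATAAA match on the opposite strand lay inside it. TATAAA on the gene's strand began 29 bases before the start of Myh3 and 32 before that of Myh1. The Myh7 window held neither of these motifs, only CANNTG, which is the E-box that myogenic factors bind and also a common short word. These matches describe letters in 300 bases and show no binding.

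Myh3, the embryonic chain, gave signals of 1839 and 3815 at E14.5, 9560.0, 8953 and 9929 at E16.5, and 5969.6, 5235 and 10777 at E18.5. Both E14.5 arrays were below all later ones, and the E16.5 and E18.5 arrays overlapped. The log2 change was 1.83 ± 0.32 (SE), adjusted p = 0.00054 from E14.5 to E16.5 and -0.44 ± 0.29 (SE), adjusted p = 0.351 from E16.5 to E18.5. From E14.5 to E18.5 it was 1.39 ± 0.32 (SE), adjusted p = 0.00334, and it lost its call without E14.5 replicate 1 (0.86, adjusted p = 0.0565) and with median centring (0.37, adjusted p = 0.325).

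Myh8, the perinatal chain, gave 185 and 359 at E14.5, 6562, 7579 and 7259 at E16.5, and 18986, 17583 and 25952 at E18.5. Its 3 stages did not overlap and each was higher than the one before. It rose 27.6-fold from E14.5 to E16.5 (log2 4.70 ± 0.24 (SE), adjusted p = 9.08e-08) and a further 2.88-fold by E18.5 (log2 1.53 ± 0.22 (SE), adjusted p = 0.00258). The signal at E18.5 was 79.6 times that at E14.5.

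Myh7, the slow chain also used by the heart, gave 513 and 839.6 at E14.5, 2242, 1401 and 2084 at E16.5, and 179, 267 and 411 at E18.5. All 3 E18.5 arrays lay below both E14.5 arrays, and these lay below the E16.5 arrays. It rose by 1.49 ± 0.33 (SE), adjusted p = 0.00269 on the log2 scale, a call lost with median centring (0.64, adjusted p = 0.104), and then fell 6.93-fold (log2 -2.72 ± 0.30 (SE), adjusted p = 0.000679). The net change from E14.5 to E18.5 was -1.23 ± 0.33 (SE), adjusted p = 0.00811, and without E14.5 replicate 2 it was -0.88 (adjusted p = 0.0995). A separate probeset annotated to both Myh7 and Myh6, and so not counted as a member, gave 9.0 and 82.4 at E14.5, 974, 765 and 999 at E16.5, and 83.8, 42.3 and 256 at E18.5.

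Of the adult fast chains, only Myh1 rose far above background, and only at E18.5. Myh1, the IIx chain, gave 34.1 and 31.7 at E14.5, 34.8, 35.6 and 24.3 at E16.5, and 1729, 1121 and 898 at E18.5. Its 5 earlier arrays were not above background and its 3 E18.5 arrays were far above it. The rise from E16.5 to E18.5 was at least 28.5-fold (log2 4.69 ± 0.28 (SE), adjusted p = 3.96e-05). Another Myh1 probeset rose at least 21.9-fold, and the last one was not above background on any array. The brightest probeset carries the array maker's mark for probes that can match several transcripts, and the coding sequences of the fast chains are closely alike, so its signal may include other chains.

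Myh4, the IIb chain, gave 26.3 and 29.8 at E14.5, 15.6, 12.3 and 13.8 at E16.5, and 98.7, 73.3 and 101 at E18.5. All 3 E18.5 arrays were just above background, and no earlier array was. Its rise from E16.5 to E18.5 was at least 2.13-fold (log2 1.83 ± 0.27 (SE), adjusted p = 0.0031). A second Myh4 probeset gave 24.6, 37.5 and 27.8 at E16.5 and 13.2, 73.4 and 51.4 at E18.5. It overlapped between the stages and was above background on 1 array only, and averaging both probesets gave 1.06 (adjusted p = 0.0313). Myh2, the IIa chain, gave 10.7 and 4.01 at E14.5, 3.90, 6.94 and 4.01 at E16.5, and 16.5, 77.6 and 88.2 at E18.5. Only E18.5 replicates 2 and 3 were above background, so the bound on its rise was 1.15-fold (log2 1.71 ± 0.43 (SE), adjusted p = 0.0305). The Myh2 call was lost without any 1 of the E16.5 replicates 1, 2 and 3 (adjusted p = 0.10, 0.0839 and 0.114) or E18.5 replicates 2 and 3 (0.0828 and 0.0725). It was also lost with quantile normalization (0.0782) and without the variance trend (0.0503). From E14.5 to E18.5 the Myh2 change was 1.56 ± 0.48 (SE), adjusted p = 0.0153, a call lost without E14.5 replicate 2 (1.35, adjusted p = 0.0942), with quantile normalization (1.00, adjusted p = 0.101) and with centring (0.54, adjusted p = 0.335). From E14.5 to E16.5 none of Myh1, Myh2 and Myh4 was called, with log2 changes of -0.05, -0.14 and -0.56.

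**Figure D2:**
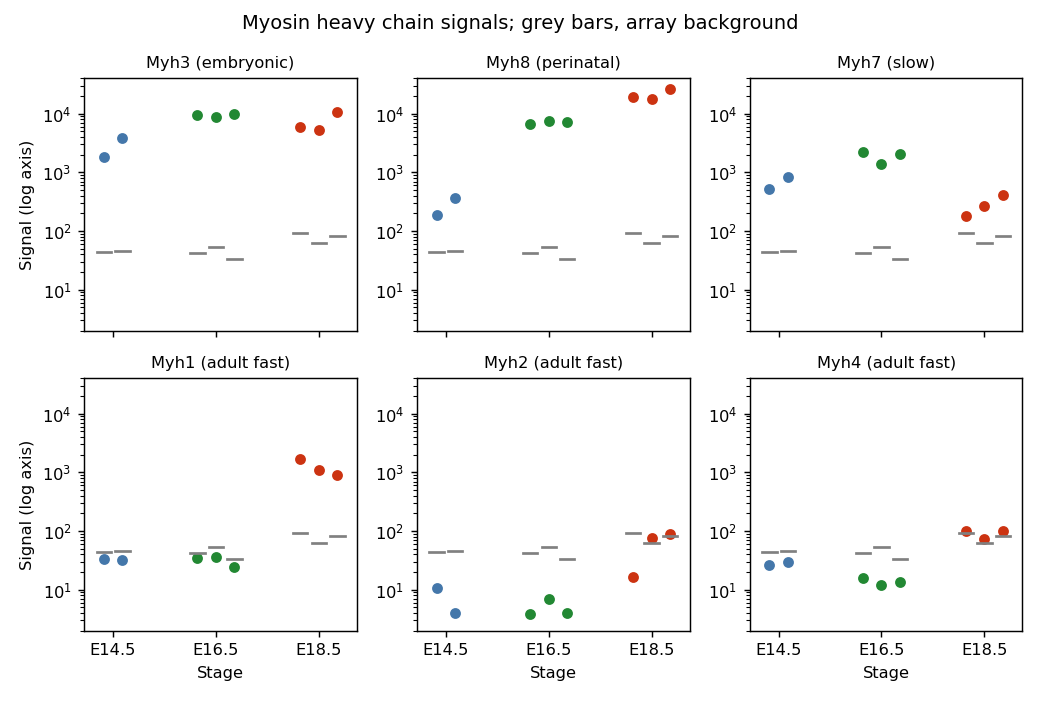
Signal of the 6 myosin heavy chains on a log axis, 1 point per array, with a grey bar at the background of that array. Myh8 climbs at each stage, Myh7 peaks at E16.5, and Myh1 leaves background only at E18.5, where its 3 arrays read 898 to 1729.

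The myosin light chains are small subunits that stabilise and regulate the heavy chain. From E16.5 to E18.5 only the slow chain Myl3 was called among the 5, and it fell, where 5.23% of all genes fell. Myl3 gave 788 and 1092 at E14.5, 929, 647 and 1166 at E16.5, and 117, 105 and 180.5 at E18.5. Its E18.5 arrays all lay below the other 5, and the earlier stages overlapped. The fall was 6.80-fold (log2 -2.62 ± 0.26 (SE), adjusted p = 0.000476), and both other Myl3 probesets fell as well, by 1.79 and 1.40 on the log2 scale. From E14.5 to E16.5 the brightest Myl3 probeset changed by -0.06 ± 0.29 (SE), adjusted p = 0.876, whereas both others rose, by 0.86 and 1.35.

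Myl2, the slow regulatory chain, gave 239 and 129 at E14.5, 80.1, 75.7 and 141 at E16.5, and 8.37, 159 and 109 at E18.5. Its arrays overlapped in every comparison and no change was called; E18.5 replicate 1 was below background. Without E18.5 replicate 2 its change from E14.5 to E18.5 was -1.80 (adjusted p = 0.0487), against -1.24 ± 0.70 (SE), adjusted p = 0.151 with all arrays.

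The fast essential chain Myl1 gave 1828 and 3761 at E14.5, 14516, 15747 and 16616 at E16.5, and 23839.7, 21141 and 27569.7 at E18.5. Each stage lay wholly above the one before. It rose 5.95-fold from E14.5 to E16.5 (log2 2.57 ± 0.24 (SE), adjusted p = 5.46e-06), and its further change of 0.62 ± 0.22 (SE), adjusted p = 0.0959 missed the threshold. Leaving out E14.5 replicate 1 or 2, which changes only the shared estimate of spread, gave 0.0171 and 0.0169 for the later change.

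Mylpf, the fast regulatory chain, gave 4722 and 8566 at E14.5, 12859.9, 13037 and 12821 at E16.5, and 22967, 13788 and 18936 at E18.5. Here too each stage lay above the one before. Its change was 1.02 ± 0.25 (SE), adjusted p = 0.00439 from E14.5 to E16.5, but 0.59 without E14.5 replicate 1 (adjusted p = 0.0703) and 0.17 with median centring (adjusted p = 0.579). From E16.5 to E18.5 it was 0.49 ± 0.22 (SE), adjusted p = 0.178. Myl4, the embryonic and atrial chain, gave 2474 and 4732 at E14.5, 5567, 4847 and 5388 at E16.5, and 4694, 1886 and 4280.5 at E18.5. All 3 E18.5 arrays lay below the E16.5 arrays, by log2 -0.64 ± 0.32 (SE), adjusted p = 0.227, which was not called. Its change from E14.5 to E16.5 was 0.62 ± 0.36 (SE), adjusted p = 0.171, and without E18.5 replicate 2 the same change had an adjusted p of 0.0460. A dimmer Myl4 probeset, below background at E14.5, rose at least 1.67-fold in that interval. It gave 77.4, 78.0 and 69.2 at E16.5 and 156, 62.0 and 173 at E18.5, with overlap. Averaging both Myl4 probesets gave a change of -0.03 from E16.5 to E18.5.

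The myosin-binding proteins C cross-link thick filaments, and their fast form was among the genes that rose most before birth. Mybpc2, the fast form, gave 42.2 and 21.7 at E14.5, 63.7, 92.7 and 71.7 at E16.5, and 1110.4, 655 and 1163 at E18.5. It was at or below background at E14.5, low at E16.5 and high on every E18.5 array. It rose 12.6-fold from E16.5 to E18.5 (log2 3.40 ± 0.29 (SE), adjusted p = 0.00027). The earlier change was 0.96 ± 0.32 (SE), adjusted p = 0.0254; without E14.5 replicate 2 it was 0.65 (adjusted p = 0.176), and leaving out E16.5 replicate 2 or 3 gave 0.0831 and 0.0506. It also lost its call with a pseudocount of 64 (0.55), quantile normalization (0.43) and median centring (0.11), with adjusted p-values of 0.0923, 0.337 and 0.767. Mybpc1, the slow form, gave 549 and 1096 at E14.5, 4306, 4443 and 4908 at E16.5, and 4498, 3913 and 8514 at E18.5. The E14.5 arrays were lowest and the later stages overlapped. It rose 5.86-fold by E16.5 (log2 2.52 ± 0.33 (SE), adjusted p = 5.84e-05) and its later change was 0.22 ± 0.29 (SE), adjusted p = 0.66. Both other Mybpc1 probesets also rose in the first interval, one 66.4-fold and the other, with 1 of 2 E14.5 arrays above background, at least 49.7-fold.

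Troponin subunits switch the thin filament on in response to calcium. From E14.5 to E16.5, 6 of 7 rose, Tnnt2 not being called, where 37.3% of all genes rose. From E16.5 to E18.5 the slow Tnni1 and the embryonic Tnnt2 fell, where 5.23% of all genes fell and 6.9% rose. No fast form was called, and the fast forms changed by 0.51 to 0.70 on the log2 scale.

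Troponin I holds the filament off at rest. Tnni1, the slow form, gave 546 and 812 at E14.5, 5115, 4695 and 6063 at E16.5, and 1640.0, 1096 and 1974 at E18.5. The E18.5 arrays lay between the E14.5 and E16.5 arrays with no overlap. It rose 7.90-fold (log2 2.95 ± 0.25 (SE), adjusted p = 2.04e-06) and then fell 3.45-fold (log2 -1.78 ± 0.22 (SE), adjusted p = 0.00128). Tnni2, the fast form, gave 525 and 935 at E14.5, 8481, 9891 and 9608 at E16.5, and 18734, 10492 and 17788 at E18.5. Its stages were in rising order without overlap. It rose 13.3-fold by E16.5 (log2 3.70 ± 0.27 (SE), adjusted p = 7.95e-07), and its change to E18.5 was 0.70 ± 0.24 (SE), adjusted p = 0.09. Without E18.5 replicate 2 that change was 0.97 and was called (adjusted p = 0.0258). A dimmer Tnni2 probeset rose by 1.98 from E16.5 to E18.5, and the last one was not above background on any array.

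Troponin T ties the complex to tropomyosin. Tnnt1, the slow form, gave 989.8 and 1666 at E14.5, 3146, 2601 and 3859 at E16.5, and 2036, 913 and 2919.9 at E18.5. E16.5 was higher than E14.5 on every array, and E18.5 overlapped both. Its changes were 1.29 ± 0.40 (SE), adjusted p = 0.0182 and then -0.84 ± 0.36 (SE), adjusted p = 0.163. The first call was lost without E14.5 replicate 1 (log2 0.92, adjusted p = 0.172) or E16.5 replicate 3 (0.0575), and with median centring (log2 0.44, adjusted p = 0.339). Without E18.5 replicate 3 the second change was -1.20 and was called (adjusted p = 0.0491), and without E18.5 replicate 2 the change from E14.5 to E18.5, 0.45 ± 0.40 with all arrays, was 0.92 (adjusted p = 0.0194).

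Tnnt2, the cardiac form that embryonic skeletal muscle also uses, gave 1413 and 2150.3 at E14.5, 2599.9, 2151 and 2587 at E16.5, and 1309.7, 856 and 1900.0 at E18.5. All E18.5 arrays were below all E16.5 arrays. The change was -0.91 ± 0.26 (SE), adjusted p = 0.0483, a call at the edge of the threshold that was lost without any 1 of the E14.5 arrays (0.0508 and 0.0511), the E16.5 arrays (0.145, 0.0940 and 0.159) or E18.5 replicates 1 and 2 (0.101 and 0.105). It was lost as well with a pseudocount of 1 (0.0566), quantile normalization (0.0620), no variance trend (0.107) or only the arrays compared (0.0507). A second Tnnt2 probeset fell by 0.92 in the same interval. Without E18.5 replicate 3 the change from E14.5 to E18.5 was -0.71 (adjusted p = 0.0301), against -0.43 ± 0.29 (SE), adjusted p = 0.22 with all arrays.

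Tnnt3, the fast form, gave 734 and 1405 at E14.5, 6050.2, 6976 and 6701 at E16.5, and 10512, 7286 and 13844 at E18.5. Its stages were in ascending order without overlap. The changes were 2.67 ± 0.28 (SE), adjusted p = 1.26e-05 and 0.63 ± 0.25 (SE), adjusted p = 0.136. Troponin C is the calcium sensor. Tnnc1, the slow and cardiac form, gave 1368 and 2523 at E14.5, 4817, 3834 and 4415 at E16.5, and 2721, 1590.5 and 3043 at E18.5. Its E16.5 arrays were above all others. It rose by 1.22 ± 0.29 (SE), adjusted p = 0.00434 from E14.5 to E16.5, or by 0.78 without E14.5 replicate 1 (adjusted p = 0.0705) and 0.37 with median centring (adjusted p = 0.285). Its later change was -0.87 ± 0.26 (SE), adjusted p = 0.0598, and without E14.5 replicate 1, E14.5 replicate 2 or E18.5 replicate 3 the adjusted p was 0.0420, 0.0421 and 0.0416. It was also called with median centring (-1.04, adjusted p = 0.0243). Tnnc2, the fast form, gave 938 and 1925 at E14.5, 13073, 13565 and 14570.3 at E16.5, and 20254, 16869.8 and 21981 at E18.5. Again no stages overlapped, and each was above the one before. It rose 10.2-fold by E16.5 (log2 3.34 ± 0.24 (SE), adjusted p = 7.68e-07). Its change to E18.5 was 0.51 ± 0.22 (SE), adjusted p = 0.156, with 0.0320 and 0.0318 when E14.5 replicate 1 or 2 was left out.

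A ratio of 2 isoforms within an array would not change if all muscle RNA changed by the same factor. Of 16 pairs written down with the design, 11 had both genes above background on every E16.5 and E18.5 array. In all 11 the E16.5 and E18.5 ratios did not overlap. As single genes, 24.3% of all genes lay wholly above and 14.5% wholly below at E18.5. No share was taken for ratios of other genes. Some of the 11 pairs share a gene, and all were chosen with earlier results of these data known. With 3 arrays against 3, the exact two-sided permutation test cannot go below 0.1, which each of them reached, and the value adjusted over the 16 pairs was 0.114, so none could pass.

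Among the myosins, the log2 ratio of perinatal Myh8 to embryonic Myh3 was -0.54, -0.24 and -0.45 at E16.5 and 1.67, 1.74 and 1.27 at E18.5, a shift of 1.97. The same ratio was -3.20 and -3.35 at E14.5. The slow Myh7 to Myh3 ratio shifted by -2.27 from E16.5 to E18.5, and the Myh7 to Myh8 ratio by -4.24. Ratio shifts from E14.5 to E16.5 were 2.87, -0.34 and -3.21 in the same order. With 2 arrays against 3 the smallest p possible is 0.2, and the 3′ over 5′ difference of the E14.5 arrays, which can act on each probeset differently, applies to those shifts too.

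In the troponins each fast to slow or fast to embryonic ratio was higher on every E18.5 array than on any E16.5 array. The shift was 2.48 for Tnni2 over Tnni1, 1.47 for Tnnt3 over Tnnt1, 1.55 for Tnnt3 over Tnnt2 and 1.38 for Tnnc2 over Tnnc1. The remaining pairs concern other filament proteins. Mybpc2 over Mybpc1 shifted by 3.17, Actn3 over Actn2 by 2.59, Myl1 over Myl4 by 1.27 and Acta1 over Actc1 by 0.44. The Myl1 over Myl4 shift was 0.65 when all probesets of a gene were averaged. Across the 12 alternatives run for each of these 11 pairs, 132 of 132 shifts kept their sign. Over the 11 pairs above background at both E14.5 and E16.5, 131 of 132 shifts between those stages did, the exception being Tnni2 over Tnni1 when all probesets of a gene were averaged (-0.996, against 0.75). Most of the 12 alternatives left out 1 array. Leaving out 1 array could not turn the sign of a pair whose stages did not overlap, so those alternatives did not test it. Averaging probesets could not change a pair whose genes each had 1 probeset. From E16.5 to E18.5 it could change only Tnni2 over Tnni1, Tnnt3 over Tnnt2, Mybpc2 over Mybpc1 and Myl1 over Myl4.

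**Figure D3:**
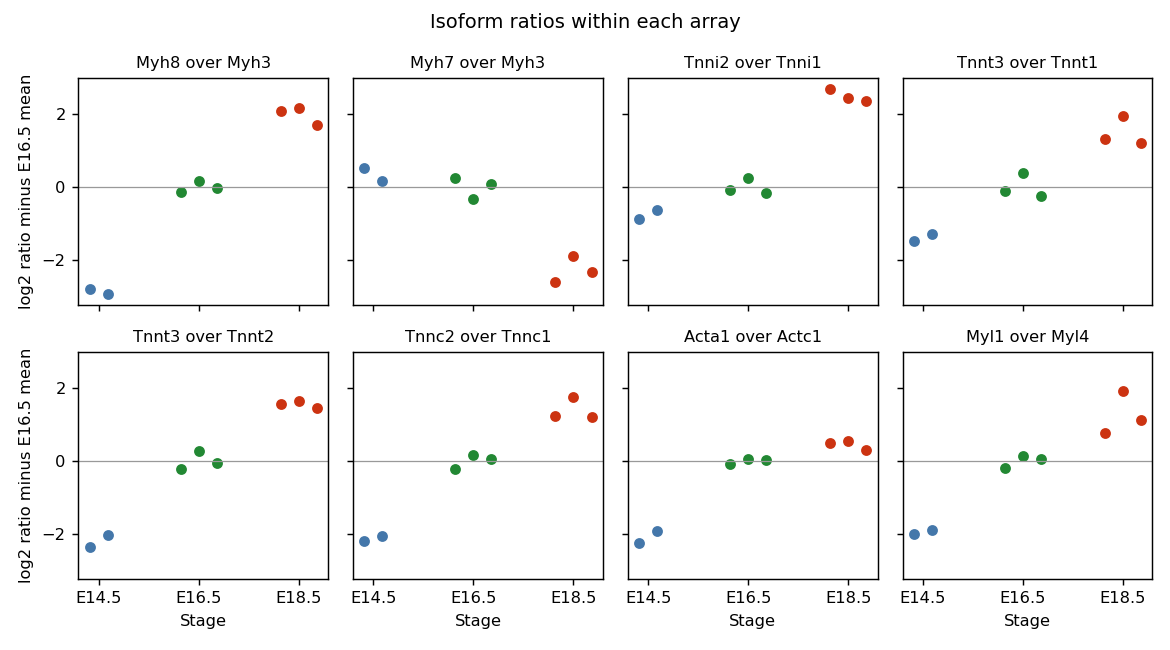
Log2 ratio of the brightest probesets of each of 8 isoform pairs, 1 point per array, drawn relative to the E16.5 mean of the pair (grey line). The 3 E18.5 points lie on one side of the 3 E16.5 points in each panel, above in 7 and below for Myh7 over Myh3.

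Thin filament genes rose mostly in the first interval. Acta1, the adult skeletal actin, gave 1123 and 2225 at E14.5, 17961, 19982 and 20096 at E16.5, and 29269.5, 26629 and 32111 at E18.5. The stages were in ascending order without overlap. It rose 12.2-fold from E14.5 to E16.5 (log2 3.60 ± 0.23 (SE), adjusted p = 3.06e-07). Only 22 to 69 of the 45101 probesets were brighter on the E18.5 arrays, whose highest signals were 38570 to 39825. The highest signals of the E14.5 arrays were 59929 and 59428, and whether brightness limited the later reading was not tested. The later change of Acta1 was 0.60 ± 0.20 (SE), adjusted p = 0.0877. Without E14.5 replicate 1 or 2 the adjusted p of that change was 0.0134 either way.

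Actc1, the cardiac actin that developing skeletal muscle also uses, gave 4702 and 7308 at E14.5, 16434, 16682 and 17350.4 at E16.5, and 18165, 16028 and 22707 at E18.5. The E14.5 arrays lay below the rest, and the later stages overlapped. It rose by 1.52 ± 0.19 (SE), adjusted p = 4.21e-05 and then changed by 0.16 ± 0.17 (SE), adjusted p = 0.585, a value that was below 0 with quantile normalization or centring. Tpm2, beta-tropomyosin, which lies along actin and is also made by smooth muscle and other cells, gave 2981 and 4198 at E14.5, 3325, 3303 and 2995 at E16.5, and 9132, 5704 and 9515 at E18.5. Only its E18.5 arrays stood apart, all higher. It rose 2.47-fold from E16.5 to E18.5 (log2 1.30 ± 0.20 (SE), adjusted p = 0.00332). Of its 3 other probesets 1 rose, by 1.09, and the others, at 0.48 and -0.32, were not called. Averaging all 4 ended the call (adjusted p = 0.0723). The brightest Tpm2 probeset carries the same array maker's mark as that of Myh1, so its signal may include other transcripts.

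Neb encodes nebulin, which spans the thin filament. It gave 86.2 and 168 at E14.5, 2501, 2627 and 2474 at E16.5, and 1254, 1273 and 4281 at E18.5. At E18.5 replicates 1 and 2 were below every E16.5 array and replicate 3 above. It rose 21.0-fold from E14.5 to E16.5 (log2 4.21 ± 0.46 (SE), adjusted p = 1.46e-05), and its later change was -0.41 ± 0.41 (SE), adjusted p = 0.552. Without E18.5 replicate 3 that change was -0.99 (adjusted p = 0.0227).

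The Z-disc anchors thin filaments, titin runs from Z-disc to thick filament as a spring, and desmin links neighbouring fibrils. All 5 members of this group rose from E14.5 to E16.5, where 37.3% of all genes rose. Only Actn3 rose again from E16.5 to E18.5, where 6.9% of all genes rose. Actn3, the fast-fibre actinin, gave 52.8 and 70.5 at E14.5, 188, 205 and 198 at E16.5, and 1069.6, 772 and 747 at E18.5. Its stages were in ascending order without overlap. The increases were 3.23-fold (log2 1.46 ± 0.23 (SE), adjusted p = 0.000238) and 4.32-fold (log2 2.03 ± 0.21 (SE), adjusted p = 0.000531). The first was 0.56 with quantile normalization (adjusted p = 0.0835) and 0.62 with median centring (adjusted p = 0.0506), so that call rested on the scaling. Actn2, the actinin of all fibres, gave 591 and 1022 at E14.5, 6039, 5699 and 6569 at E16.5, and 4028, 2731 and 6305 at E18.5. E14.5 was lowest, and E16.5 and E18.5 overlapped. Its changes were 2.94 ± 0.31 (SE), adjusted p = 1.12e-05 and -0.57 ± 0.28 (SE), adjusted p = 0.213, and without E18.5 replicate 3 the second was -0.87 (adjusted p = 0.0420).

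Ttn, titin, gave 334 and 736 at E14.5, 8621, 9513 and 9334 at E16.5, and 8126, 7469 and 14256 at E18.5. The later stages overlapped, far above E14.5. It rose 18.4-fold (log2 4.16 ± 0.32 (SE), adjusted p = 1.11e-06) and then changed by 0.06 ± 0.28 (SE), adjusted p = 0.917, with the sign turned by quantile normalization and by centring. Its 5 other probesets changed by 0.75 to 3.17 in the first interval, and 2 of these were called. Tcap, telethonin, which caps titin at the Z-disc, gave 40.8 and 40.6 at E14.5, 296, 357 and 432 at E16.5, and 689, 484 and 615 at E18.5. It was below background on both E14.5 arrays, and each later stage was higher than the one before. It rose at least 7.98-fold (log2 2.72 ± 0.24 (SE), adjusted p = 2.92e-06). Its later change was 0.70 ± 0.21 (SE), adjusted p = 0.0623, or 0.84 without E18.5 replicate 2 (adjusted p = 0.0485). Des, desmin, gave 286 and 192 at E14.5, 3051, 2838 and 3675 at E16.5, and 3446, 1825 and 3542 at E18.5. The E14.5 arrays were lowest and the others overlapped. It rose 13.5-fold (log2 3.67 ± 0.28 (SE), adjusted p = 1.03e-06) and then changed by -0.17 ± 0.25 (SE), adjusted p = 0.694.

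Of the genes of excitation and calcium handling, all 4 rose from E14.5 to E16.5, where 37.3% of all genes rose. Casq1 alone rose again from E16.5 to E18.5, where 6.9% of all genes rose. Cacna1s, the voltage sensor of the transverse tubule, gave 31.2 and 5.08 at E14.5, 239.6, 286 and 281 at E16.5, and 388, 237 and 415 at E18.5. It was below background at E14.5 and overlapped between the later stages. It rose at least 5.99-fold (log2 3.17 ± 0.37 (SE), adjusted p = 2.42e-05), and its later change was 0.31 ± 0.33 (SE), adjusted p = 0.576. Ryr1, the calcium release channel of the sarcoplasmic reticulum, gave 443 and 654 at E14.5, 1551, 1322 and 1659 at E16.5, and 1263, 727 and 2004 at E18.5. E16.5 was above E14.5 on every array and overlapped E18.5. Its changes were 1.45 ± 0.34 (SE), adjusted p = 0.00356 and -0.29 ± 0.30 (SE), adjusted p = 0.576, the first being 0.61 with median centring (adjusted p = 0.121). From E14.5 to E18.5 it rose by 1.16 ± 0.34 (SE), adjusted p = 0.0122, or 0.89 without E14.5 replicate 1 (adjusted p = 0.119), 0.80 with quantile normalization (0.0989) and 0.14 with centring (0.720).

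Casq1, calsequestrin of fast fibres, which stores calcium, gave 91.6 and 129 at E14.5, 1018, 1129.9 and 1211 at E16.5, and 3232, 1881 and 3666 at E18.5. Its stages were in ascending order without overlap. The rises were 10.3-fold (log2 3.18 ± 0.26 (SE), adjusted p = 1.84e-06) and 2.52-fold (log2 1.32 ± 0.23 (SE), adjusted p = 0.00696). Atp2a1, the fast-fibre calcium pump, gave 209 and 394 at E14.5, 3727, 3601 and 4344 at E16.5, and 5374, 4097 and 6803 at E18.5. E14.5 was lowest and the later stages overlapped. It rose 13.5-fold by E16.5 (log2 3.68 ± 0.26 (SE), adjusted p = 6.15e-07), and its later change was 0.45 ± 0.23 (SE), adjusted p = 0.235.

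The 5 genes of muscle energy metabolism all rose from E14.5 to E16.5, where 37.3% of all genes rose. None was called from E16.5 to E18.5, where only 6.9% of all genes rose and 5.23% fell. Ckm, the muscle creatine kinase that regenerates ATP from phosphocreatine, had the largest first-interval change of the 41 members. It gave 52.5 and 89.5 at E14.5, 8445, 9777 and 10632 at E16.5, and 17614, 8266 and 17383 at E18.5. Both E14.5 arrays were low but above background, and the later stages overlapped. It rose 139.8-fold (log2 6.82 ± 0.31 (SE), adjusted p = 4.60e-08), and its later change was 0.51 ± 0.27 (SE), adjusted p = 0.258. Without E18.5 replicate 2 that later change was 0.87 (adjusted p = 0.0247). A second Ckm probeset gave 23.0 and 81.7 at E14.5 and 174, 201 and 171 at E16.5, a rise of at least 3.03-fold. Averaging both gave a log2 change of 4.25 in place of 6.82. Ckmt2, the mitochondrial creatine kinase of striated muscle, gave 1.31 and 29.1 at E14.5, 505, 519 and 559 at E16.5, and 1040.1, 615 and 1306 at E18.5. It was below background at E14.5, and E18.5 was above E16.5 on every array. It rose at least 11.8-fold by E16.5 (log2 4.28 ± 0.40 (SE), adjusted p = 4.52e-06), and its later change was 0.82 ± 0.35 (SE), adjusted p = 0.166.

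Of the glycolytic members, Eno3, muscle enolase, gave 585 and 952 at E14.5, 6109, 6194 and 6928 at E16.5, and 9891, 6119.7 and 10536 at E18.5. It rose 8.58-fold by E16.5 (log2 3.07 ± 0.25 (SE), adjusted p = 1.52e-06) and then changed by 0.43 ± 0.22 (SE), adjusted p = 0.238. Pygm, the phosphorylase that breaks down muscle glycogen, gave 82.1 and 144 at E14.5, 1639.8, 1530.5 and 1906 at E16.5, and 1806, 1422 and 2713 at E18.5. Its first change was 3.76 ± 0.28 (SE), adjusted p = 8.07e-07 and its second 0.18 ± 0.25 (SE), adjusted p = 0.674. Pgam2, the muscle phosphoglycerate mutase, gave 148 and 364 at E14.5, 2196, 2099 and 2451 at E16.5, and 3455, 1716 and 3935 at E18.5. Its changes were 3.18 ± 0.37 (SE), adjusted p = 2.79e-05 and 0.35 ± 0.34 (SE), adjusted p = 0.542. In all 3 genes the E14.5 arrays were lowest, and E16.5 and E18.5 overlapped.

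Both acetylcholine receptor subunits of the neuromuscular junction rose from E14.5 to E16.5, where 37.3% of all genes rose. Neither was called from E16.5 to E18.5, where 6.9% of all genes rose and 5.23% fell. Chrna1, the ligand-binding subunit, gave 171 and 119 at E14.5, 436, 354 and 402 at E16.5, and 186, 169.7 and 349 at E18.5. All E16.5 arrays were above all others. It rose by 1.38 ± 0.31 (SE), adjusted p = 0.0027, a call lost with quantile normalization (0.47, adjusted p = 0.210) and median centring (0.53, adjusted p = 0.134). It then changed by -0.78 ± 0.27 (SE), adjusted p = 0.0966, or by -1.09 without E18.5 replicate 3 (adjusted p = 0.0166) and -0.96 with centring (adjusted p = 0.0352). Chrng, the fetal gamma subunit that is later exchanged for epsilon, gave 89.0 and 122 at E14.5, 343, 324 and 416 at E16.5, and 190.0, 86.5 and 329 at E18.5. E16.5 was above E14.5 on every array and overlapped E18.5. It rose by 1.64 ± 0.42 (SE), adjusted p = 0.0064, a call lost without E14.5 replicate 1 (adjusted p = 0.0556), with quantile normalization (0.70, adjusted p = 0.198) and with median centring (0.79, adjusted p = 0.109). Its later change was -0.95 ± 0.38 (SE), adjusted p = 0.134, or -1.37 without E18.5 replicate 3 (adjusted p = 0.0275). From E14.5 to E18.5 it changed by 0.69 ± 0.42, or by 1.15 without E18.5 replicate 2 (adjusted p = 0.00956). The epsilon subunit gene Chrne was not above background on any array.

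Rpl3l, a ribosomal protein largely restricted to striated muscle, gave 0.709 and 1.17 at E14.5, 5.89, 20.6 and 30.7 at E16.5, and 199.6, 118 and 214 at E18.5. No earlier array was above background and every E18.5 array was. It rose at least 4.06-fold from E16.5 to E18.5 (log2 2.49 ± 0.36 (SE), adjusted p = 0.00281). The earlier change, 0.98 ± 0.40 (SE), adjusted p = 0.0581, was called without E16.5 replicate 1 (log2 1.29, adjusted p = 0.0238) or E18.5 replicate 2 (0.0471).

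**Figure D4:**
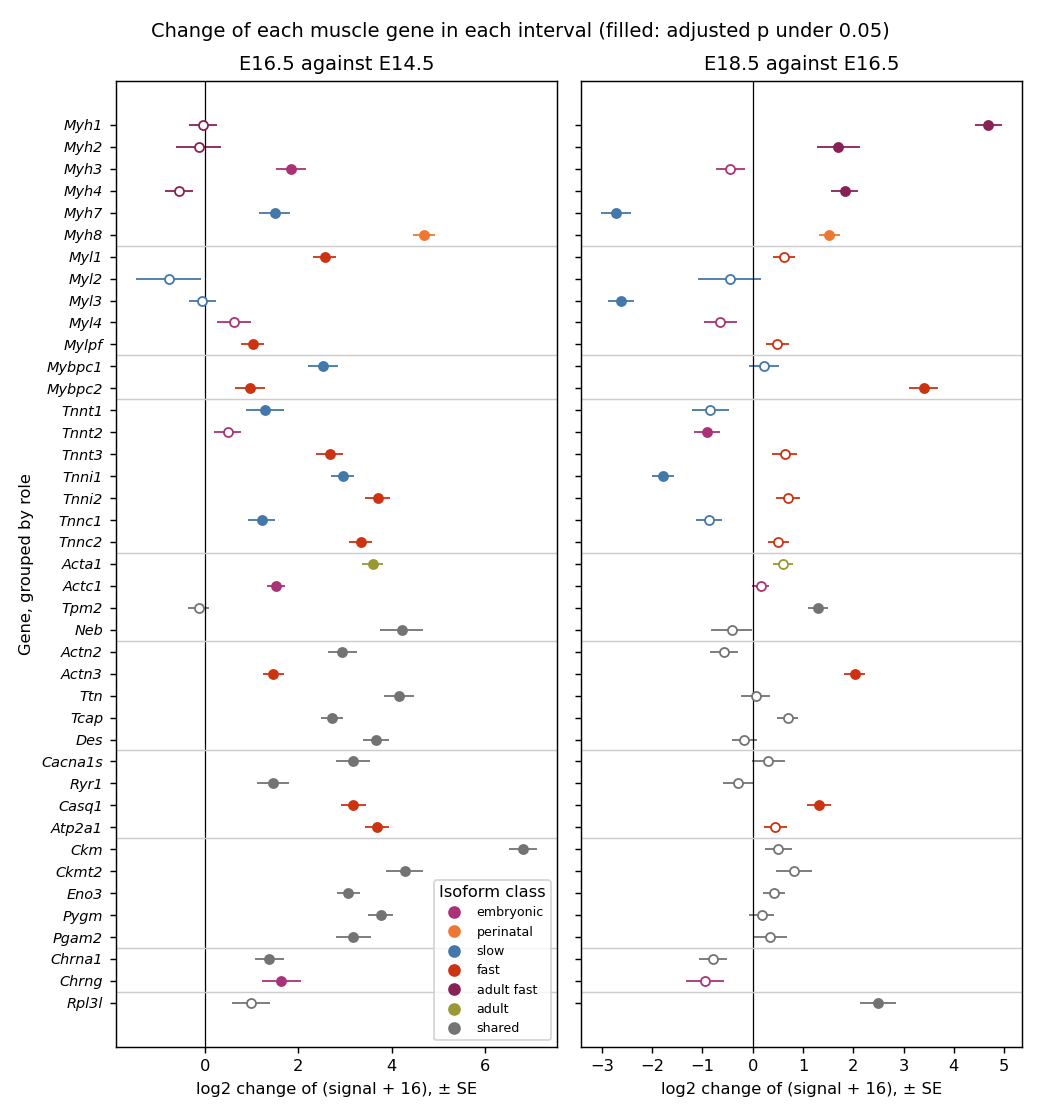
Log2 change of each member in each interval, bars ± SE, filled where the limma adjusted p was under 0.05 and coloured by isoform class. Nearly all points lie right of 0 from E14.5 to E16.5, where 32 are filled; from E16.5 to E18.5 the slow members lie left of 0 apart from Mybpc1 and the fast and adult fast members lie right of it.

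The members had 25 other probesets. Of these, 5 were called in the same direction as the brightest from E16.5 to E18.5, 8 from E14.5 to E16.5 and 15 from E14.5 to E18.5. There were 0 called in opposite directions. The counts include probesets at background in the dimmer stage and a Tnni2 probeset at background throughout.

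Of 55 measured sarcomere and muscle genes outside the members, 6 rose and 1 fell from E16.5 to E18.5, with a median change of 0.03. Of all genes, 6.9% rose and 5.23% fell. Pvalb, the calcium buffer of fast fibres, was above background on 1 of 3 arrays at E16.5 and rose at least 3.60-fold (adjusted p = 0.0192). Cox7a1, a respiratory chain subunit of muscle and brown fat, was above it on 2 of 3 and rose at least 3.56-fold (adjusted p = 0.00971). Smyd1, a methyltransferase that helps assemble thick filaments, was the one that fell (-0.90 ± 0.26 (SE), adjusted p = 0.0488). From E14.5 to E16.5, where 37.3% of all genes rose and 21.3% fell, 34 of the 55 rose and 3 fell. Their median change was 1.52. The measured changes were largest for Trim54 and Myoz1, both of the sarcomere. Myoz1 rose 19.2-fold (log2 4.03 ± 0.30), and Trim54, below background at E14.5, rose at least 6.94-fold. Tmod1, which caps actin filaments, changed by -3.15. Mb, myoglobin, was above background on 1 of 2 arrays at E14.5 and on none at E16.5, so its called fall lies at the background level.

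Among 16 measured regulators of muscle formation, 3 fell from E16.5 to E18.5 and 0 rose, where 5.23% of all genes fell and 6.9% rose. Myog, a master factor of muscle differentiation, gave 1715 and 3043 at E14.5, 1678, 1465 and 1439.9 at E16.5, and 683, 368 and 927 at E18.5. Its E18.5 arrays were all below its E16.5 arrays, a change of -1.28 ± 0.30 (SE), adjusted p = 0.0242. Myod1, which commits cells to the muscle lineage, changed by -0.98 ± 0.27 (SE), adjusted p = 0.0477, and Mymk, which drives myoblast fusion, by -0.91 ± 0.23 (SE), adjusted p = 0.0333. From E14.5 to E16.5, where 37.3% of all genes rose and 21.3% fell, 8 of the 16 rose and 5 fell. The measured rises were largest for Mymk (log2 2.39) and Myf6, which was above background on 1 of 2 E14.5 arrays and rose at least 6.53-fold, and the progenitor genes Myf5 and Pax7 fell furthest (-1.60 and -1.39).

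Markers of other contractile and neighbouring cells were read on the same arrays, and their part in the member changes was not tested except where a value is given. For scale, 6.9% of all genes rose and 5.23% fell from E16.5 to E18.5. Of 11 heart genes, 2 (Nppa and Nppb) were called higher at E18.5 than at E16.5, but Nppa was not above background on any array. None of the 11 was above background on every array, and Myh6, the atrial and adult ventricular chain, was not above it on any. Mybpc3 and Myl7 were above background on every E16.5 and E18.5 array but on no E14.5 array. Their signals were 113, 178 and 144 (Mybpc3) and 87.6, 117 and 106 (Myl7) at E16.5. At E18.5 they were 160, 69.2 and 107, and 198, 104 and 122. From E14.5 to E16.5, 3 of the 11 rose and 1 fell, where 37.3% of all genes rose and 21.3% fell. The summed heart signal was between 270.0 and 317 on the E14.5 arrays and 439.6 and 499 on the E16.5 arrays. It was between 623 and 952 on the E18.5 arrays, where background was also higher. None of 10 smooth muscle genes was called from E16.5 to E18.5. Of the 10, 9 had a positive change, as did 10975 of all 18193 genes. The smooth muscle median log2 change was 0.80, against 0.12 over all genes. Their summed signal was between 8163 and 10112 on the E16.5 arrays and between 9059 and 12333 on the E18.5 arrays. In brown fat, which shares several muscle genes, 2 of 7 rose, from a summed 1083 to 1229.9 to between 1720.5 and 2412, and its defining gene Ucp1 was above background on 1 array.

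The general adipocyte list rose most, 5 of 5, from a summed 5167 to 5900.1 at E16.5 to between 18868 and 27151 at E18.5. Of the dermal fibroblast genes 2 of 8 rose, and of the epidermal genes 1 of 8, where 6.9% of all genes rose. None of 5 tendon, 5 cartilage and bone, or 4 Schwann cell and nerve genes was called. Between E14.5 and E16.5 the summed tendon signal went from 3046 to 4882 down to 642 to 726. Fmod made up much of that fall, with 3642 and 1738 at E14.5 and 181 to 195 at E16.5. Of the 5 tendon genes, 3 fell and 1, Tnmd, rose (log2 0.63, limma adjusted p = 0.0121). In that interval 37.3% of all genes rose and 21.3% fell. The defining skin genes of the epidermal and dermal lists summed to 67797 to 90347 and 77004 to 78656 at E14.5 and higher later.

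Promoter windows were found for 36 of the 41 members; Tnnt3, Tnni2, Tcap, Actn3 and Neb were not matched. Both strands were searched. CANNTG occurred in 32 (88.9%) of these windows and in 72.1% of the 27025 windows of all genes. The palindrome CAGCTG, itself a form of CANNTG, occurred in 21 (58.3%), against 16.1%. TATAAA was found in 9 (25.0%), against 14.2%. The MEF2 site, which can hold a TATAAA match, occurred in 5 (13.9%), those of Ttn, Pgam2, Myh1, Myh4 and Myh8, against 1.89%. The CArG box occurred in 4 (11.1%), those of Actc1, Acta1, Myl3 and Myh4, against 1.57%. These are counts of letters in fixed windows, and no binding was measured.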

How the data were processed

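Mouse dorsal skin was measured on 8 Affymetrix Mouse Genome 430 2.0 arrays, an array type given by the probe annotation. The deposited intensity of each probeset is a signal on a linear scale. Expression Console 1.1 and PLIER 2.0 are listed in the submitters' processing notes, without their order, and the sources used here do not say how arrays were normalized. Per the labels' protocols, Trizol RNA was amplified with random primers, a route meant for whole-transcript arrays, so target preparation for this 3′ array is uncertain.

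The limma package (3.58.1, R 4.3.3) fitted 1 mean per stage to log2(signal + 16) on all 8 arrays (lmFit, eBayes with a variance trend) over 34945 probesets with 1 symbol. A further 932 had several symbols and 9211 none; 64 of the platform's probesets are controls. Benjamini-Hochberg adjustment covered all probesets tested, and every adjusted p of a gene is from this fit. A bounded fold sets the bright stage against the higher of background and dim signal, averaged on the log2 scale. The step was tested on simulated data: with E18.5 against E16.5 changed in 200 probesets, 51 of 100 of log2 size 1 and 97 of 100 of size 2 were called. Of the unchanged probesets 9 were called. The changed ones were drawn from probesets above the median level, so recovery near background was not tested. All other stage differences were removed in the simulation, unlike in the real data.

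Replicates were numbered in accession order. Members, pairs, isoform classes, lists and alternatives were chosen with earlier results of these data known. Every-array values were planned for myosin heavy chains, troponins and, elsewhere, members called without overlap in at least 1 interval; Myl2 and Myl4, outside that rule, are given for completeness. Of other lists, the 2 largest rises and falls among called genes and defining genes could be named; Smyd1, Chrne and Myod1 were named after their values were seen or to spell out a short count. Other settings tried were quantile normalization, median centring, pseudocounts of 1 and 64, a filter to probesets above background on 2 arrays, no variance trend, only the arrays compared, 1 probeset or the mean of all probesets per gene, and each array left out. Promoters come from RefSeq (GRCm38.p6); proteins were not used here. The number of arrays limits the precision.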

Additional observations from a re-analysis of the deposited data

Results flagged for a closer look

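In Myh7, the slow myosin heavy chain, and Tnni1, the slow troponin I, the second interval went against the first. Both rose from E14.5 to E16.5 and fell from E16.5 to E18.5, and limma called the difference between the intervals itself. That difference was called for 35 of the 41 members, and its share over all genes was not counted. What marks these genes is that each interval was called, in opposite directions. The Myh7 rise was not called with median centring (0.64, adjusted p = 0.104). The change from E16.5 to E18.5 minus that from E14.5 to E16.5 was -4.21 on the log2 scale for Myh7 and -4.73 for Tnni1. All 3 E18.5 arrays lay below all 3 E16.5 arrays, and both E14.5 arrays did too, for each gene. Both intervals share the E16.5 arrays, and stage and array preparation cannot be told apart at E14.5.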

How the results depend on the processing

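Of 13 members called from E16.5 to E18.5, 10 were called under every alternative, as were 23 of 32 from E14.5 to E16.5 and 26 of 34 from E14.5 to E18.5. Averaging all probesets of a gene turned Myl3 from E14.5 to E16.5 to 0.71, Myl4 from E14.5 to E18.5 to 1.35, Tnni2 over Tnni1 from E14.5 to E16.5 to -0.996, and Mybpc2 over Mybpc1 from E14.5 to E18.5 to -0.15. It also turned values called in neither setting: Des, Mybpc1 and Ttn from E16.5 to E18.5 (0.31, -0.04 and -0.17), Myh4 and Tpm2 from E14.5 to E16.5 (0.27 and 0.41), and Myh4 over Myh8 from E16.5 to E18.5 (-0.46). Called changes it moved by over 1.5 times from E14.5 to E16.5 were Ckm (4.25), Des (2.21), Mybpc1 (4.55), Tnni2 (1.95) and Ttn (1.91), and from E16.5 to E18.5 Myh1 (3.09), Myh4 (1.06) and Tpm2 (0.64). The same setting gave 2484 and 2132 falling genes from E14.5 to E16.5 and to E18.5, against 3882 and 3618. Falling members from E14.5 to E16.5, 0 by limma, numbered 1 with quantile normalization, 4 with median centring and 1 without the variance trend, and those from E14.5 to E18.5 numbered 5 with centring. With centring, 680 genes rose and 1731 fell from E16.5 to E18.5, 3637 and 7569 from E14.5 to E16.5, and 3311 and 7499 from E14.5 to E18.5. Without the variance trend 479 genes fell from E16.5 to E18.5. Leaving out 1 array at a time gave 8 to 12 rising and 3 to 10 falling members from E16.5 to E18.5, 28 to 34 rising from E14.5 to E16.5, and 30 to 34 rising and 1 to 3 falling from E14.5 to E18.5. All-gene counts ran from 413 to 1387 rising and 312 to 1171 falling from E16.5 to E18.5. The causes of these shifts were not tested, beyond the fewer arrays. No paired analysis was possible because the labels give no link between arrays of different stages. Replicate numbers follow accession order only. Sample titles carry number codes of unstated meaning, and any 2 stages share at most 1 leading figure of them. Signal over background limits Myh1, Myh2, Myh4, Mybpc2, Tcap, Ckmt2, Cacna1s and Rpl3l at the earlier stages.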
